A study of Mus musculus with 8 samples.

Results

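De novo lipogenesis is the route by which the liver turns carbon from sugar into fatty acids. The 10 genes described here are Srebf1, Mlxipl, Fasn, Acaca, Acacb, Acly, Scd1, Elovl6, Me1 and Thrsp. All 10 were found among the 32285 genes of the count tables. They were chosen by symbol from textbook knowledge of the route, with earlier results of these data known. They were measured by single-nucleus RNA sequencing in the livers of 8 male DIAMOND mice, labelled as 129A1/SvIm and C57BL/6J cross mice, with 1 library per mouse. All 8 mice had been fed Western diet, given as high-fat food with fructose and glucose in the drinking water. The WD tumour group (n = 3) stayed on it for 48 weeks and developed hepatocellular carcinoma. After 36 weeks 5 mice were returned to standard chow. Of these, 2 had carcinoma (RD tumour) and 3 had none that was detectable (RD no tumour). No group was fed chow throughout, so levels in livers never exposed to Western diet were not analysed here. The labels place the end of the study at 48 weeks of age, which disagrees with 48 weeks of diet begun at 2 months of age. They do not say whether the sampled piece held tumour tissue, nor at what hour or fed state the livers were taken.

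As background, insulin and sugar switch the route on through a pair of transcription factors. Srebf1 encodes SREBP-1, a membrane-bound factor released by proteolysis, whose liver form is itself induced by insulin and by the oxysterol receptor LXR. Mlxipl encodes ChREBP, which responds to glucose metabolites. Citrate exported from mitochondria is cut to acetyl-CoA, carboxylated to malonyl-CoA, joined into palmitate, elongated and desaturated, and NADPH supplies the reducing power. In the liver the route is known to be active after feeding, to follow the daily clock, and to be raised in fatty liver disease.

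Among the enzymes, Acly (ATP citrate lyase, chr11:100476353-100528000, minus strand) makes cytosolic acetyl-CoA from citrate. Acaca (acetyl-CoA carboxylase 1, chr11:84129672-84401651, plus strand) makes the malonyl-CoA used for synthesis. Acacb (acetyl-CoA carboxylase 2, chr5:114146535-114250761, plus strand) makes malonyl-CoA at mitochondria, where it restrains fatty acid oxidation. Fasn (fatty acid synthase, chr11:120805846-120824547, minus strand) builds palmitate. Elovl6 (chr3:129532355-129638495, plus strand) extends palmitate, and Scd1 (stearoyl-CoA desaturase 1, chr19:44394455-44407879, minus strand) makes it monounsaturated. Me1 (cytosolic malic enzyme, chr9:86581371-86695953, minus strand) yields NADPH. Thrsp (Spot 14, chr7:97412938-97417730, minus strand) is a small protein induced by thyroid hormone and carbohydrate that accompanies the enzymes. The regulators Srebf1 and Mlxipl lie at chr11:60199089-60222581 (minus strand) and chr5:135089890-135138382 (plus strand). These positions span the whole protein-coding gene, introns included, in GENCODE release M21 on build GRCm38. In that annotation Srebf1 overlaps Rai1 on the other strand, and Mlxipl, Acaca, Acacb, Elovl6 and Me1 each overlap 1 gene on the other strand. On the same strand Srebf1 overlaps 2 genes (Mir6921 and Mir6922), and Acaca, Acly, Elovl6 and Me1 overlap 1 each. Fasn, Scd1 and Thrsp overlap none on either strand. How the authors' counting treated strand and introns is not given in the sources used here, and reads of overlapping partners may not be told apart.

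The stretches before 4 start sites are shown with the boxes of general activators marked. They lie at both regulators and at the enzymes that open and complete palmitate synthesis. Each is 250 bases long and ends just before a transcript start in RefSeq's table for build GRCm38.p6, written 5′ to 3′ on the gene's own strand. Capitals mark matches, on either strand, to an E-box (CACGTG), the NF-Y box (CCAAT) or the Sp1 box (GGGCGG); adjoining matches run together.
Srebf1, chr11:60210472-60210721, minus strand: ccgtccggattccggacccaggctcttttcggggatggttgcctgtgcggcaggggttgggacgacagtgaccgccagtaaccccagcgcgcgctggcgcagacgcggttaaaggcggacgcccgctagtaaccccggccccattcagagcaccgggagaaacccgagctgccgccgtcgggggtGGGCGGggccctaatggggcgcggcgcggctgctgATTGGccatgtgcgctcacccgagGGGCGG
Mlxipl, chr5:135089640-135089889, plus strand: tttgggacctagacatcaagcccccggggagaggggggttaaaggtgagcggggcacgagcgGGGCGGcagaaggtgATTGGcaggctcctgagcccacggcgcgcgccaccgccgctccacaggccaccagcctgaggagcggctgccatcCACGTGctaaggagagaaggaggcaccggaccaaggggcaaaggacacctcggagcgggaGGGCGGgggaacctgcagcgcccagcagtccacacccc
Fasn, chr11:120824548-120824797, minus strand: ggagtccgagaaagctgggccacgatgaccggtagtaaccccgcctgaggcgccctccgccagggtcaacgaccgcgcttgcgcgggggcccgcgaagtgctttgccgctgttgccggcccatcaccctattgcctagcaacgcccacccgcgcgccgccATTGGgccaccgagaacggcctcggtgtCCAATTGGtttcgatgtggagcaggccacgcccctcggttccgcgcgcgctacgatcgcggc
Acly, chr11:100528001-100528250, minus strand: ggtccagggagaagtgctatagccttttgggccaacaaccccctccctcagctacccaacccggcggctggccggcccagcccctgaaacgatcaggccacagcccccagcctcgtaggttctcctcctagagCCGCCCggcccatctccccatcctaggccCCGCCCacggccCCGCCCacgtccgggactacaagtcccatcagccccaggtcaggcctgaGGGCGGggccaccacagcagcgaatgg

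The Srebf1 stretch belongs to the start lying farthest downstream of the 3 in the table, inside the gene. It held 1 NF-Y box and 2 Sp1 boxes, 30, 65 and 6 bases before the start, counted to the first printed base. The Mlxipl stretch held the only E-box among the 13 windows of 9 members, 98 bases before the start. An E-box was present in 6.02% of all 32851 windows searched. The Fasn stretch held 3 NF-Y boxes, 90, 62 and 59 bases before the start, of which the last 2 overlap. The Acly stretch held 4 Sp1 boxes and none of the other motifs. Of the 13 windows, 7 held an NF-Y box, as did 33.8% of all windows, and 5 held an Sp1 box, as did 32.7%. The windows of Acaca and Elovl6 held none of the 3 motifs. The Acaca window (chr11:84195188-84195437), however, lies well inside the gene, whose annotated span begins at base 84129672. The bases before that beginning were not searched. The Acacb window also lies inside its gene. The table has no entry for Scd1. These matches are descriptions of letters in a window.

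Libraries held between 17948627 and 34363108 UMIs (unique molecular identifiers, 1 per captured RNA molecule), and 79446 of 80575 barcodes had the 300 detected genes required here. RD tumour 1 stood apart: it had exactly 20000 barcodes, 6.17% of its nuclei passed the hepatocyte gate against 20.5% to 44.2% in the other mice, and it held 7 macrophage-gated nuclei. Its hepatocyte zone markers were not opposed (correlation of their square-root shares across nuclei 0.03, against -0.72 to -0.41 in the other 7 mice). Over whole libraries, log2 levels of WD tumour 2 correlated more with RD no tumour 1 (0.970) than with WD tumour 1 (0.929) and 3 (0.931). The median mitochondrial share was 7.91% in WD tumour 1 and 7.51% in WD tumour 3, and between 1.30% and 3.28% in the others. Of the barcodes, 744 occurred in 2 libraries and 4 in 3. Hepatocyte nuclei were gated by 8 hepatocyte markers among nuclei that did not reach the threshold of another class. Secreted-protein genes other than Apob were left out, such as Alb, whose RNA was found in nearly all nuclei of every class. Apob RNA was widespread too. In the 7 mice other than RD tumour 1 its median share of nuclei ran from 77.1% (stellate or fibroblast) to 86.2% (B or plasma cell) over the other classes. Most hepatocyte nuclei still held some UMIs of other classes' markers (in WD tumour 1, 1507 of 1703 had a macrophage and 1237 an endothelial marker UMI). They numbered 1233 to 4200 per mouse, and levels are given as CPM, UMIs scaled to 1000000 in those nuclei of a mouse. Between 99 and 849 nuclei per mouse lay within 10% of the cut-off. The summed level of the 19 macrophage markers in them ranged from 704 to 1125 CPM in WD tumour mice, 1032 to 1870 in RD tumour mice and 1372 to 2122 in RD no tumour mice. Slc8a1 alone made up 296 to 1844 CPM of this, and without it the ranges were 408 to 604, 548 to 1553 and 278 to 762 CPM and overlapped. The part of such RNA from other cells in the results was not tested.

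In hepatocyte nuclei the regulator Srebf1 and the enzymes Acaca and Elovl6 were higher in every WD tumour mouse than in every mouse returned to chow. None of the 10 members passed edgeR's test across all genes in any pair of groups, and no other gene did, while DESeq2 called 45 to 190 genes per pair and 2 members in 1 pair. The group means of Acly lay within 1 SD of each other, and Scd1, Me1 and Thrsp had wide spreads within groups.

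Srebf1 stood at 70.4, 31.5 and 63.8 CPM in WD tumour mice 1, 2 and 3, at 26.1 and 9.82 in RD tumour mice 1 and 2, and at 15.96, 17.2 and 12.4 in RD no tumour mice 1, 2 and 3. The lowest WD tumour value lay above the highest of the 5 reversed mice. Mlxipl stood at 801, 490 and 829 CPM in WD tumour mice, at 127 and 697 in RD tumour mice and at 335, 457 and 457 in RD no tumour mice. WD tumour mice lay above RD no tumour mice without overlap, but RD tumour 2 was higher than WD tumour 2, and RD tumour 1 was the lowest of all.

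Of the enzymes leading to palmitate, Acaca showed the tightest grouping. Its level was 512, 544 and 458 CPM in WD tumour mice, 234 and 233 in RD tumour mice and 247, 411 and 333 in RD no tumour mice. The 3 groups did not overlap in hepatocyte nuclei, with RD tumour lowest. Acacb was measured at 195, 102 and 115 CPM in WD tumour mice, 28.9 and 104 in RD tumour mice and 93.5, 107 and 98.4 in RD no tumour mice. These overlapped, with WD tumour 1 alone at the top and RD tumour 1 alone at the bottom. Fasn gave 41.3, 16.4 and 38.5 CPM in WD tumour mice, 18.6 and 15.3 in RD tumour mice and 24.7, 31.8 and 23.9 in RD no tumour mice. WD tumour 2 lay with the RD tumour mice, and both RD tumour mice lay below all 3 RD no tumour mice. Acly, at the head of the route, spanned 32.2 to 54.7 CPM over the 8 mice, with group means of 43.6 ± 10.9 (SD, n = 3), 44.0 ± 1.71 (SD, n = 2) and 44.9 ± 9.96 (SD, n = 3).

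Elovl6, the elongase, stood at 176, 106 and 84.7 CPM in WD tumour mice, at 27.6 and 52.0 in RD tumour mice and at 67.7, 64.3 and 44.2 in RD no tumour mice. Every WD tumour mouse was above every reversed mouse. Scd1, the desaturase, was measured at 540, 67.4 and 292 CPM in WD tumour mice, 178 and 128 in RD tumour mice and 159, 206 and 126 in RD no tumour mice. The highest and the lowest of the 8 values both came from the WD tumour group. Me1 gave 124, 52.8 and 61.7 CPM in WD tumour mice, 11.6 and 154 in RD tumour mice and 30.3, 181 and 82.9 in RD no tumour mice. Its spread lay within the reversed groups, with 1 high mouse in each.

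Thrsp had the widest range, 48.5-fold over the 8 mice. It stood at 401, 8.27 and 211 CPM in WD tumour mice, at 9.04 and 14.2 in RD tumour mice and at 8.29, 205 and 58.5 in RD no tumour mice. Low and high mice thus occurred in both the WD tumour and the RD no tumour group. WD tumour 2, the low one of its group, also had the lowest Scd1. The lowest of these values rest on 36 Thrsp UMIs in RD tumour 1, 134 in RD no tumour 1 and 87 in WD tumour 2.

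**Figure D1:**
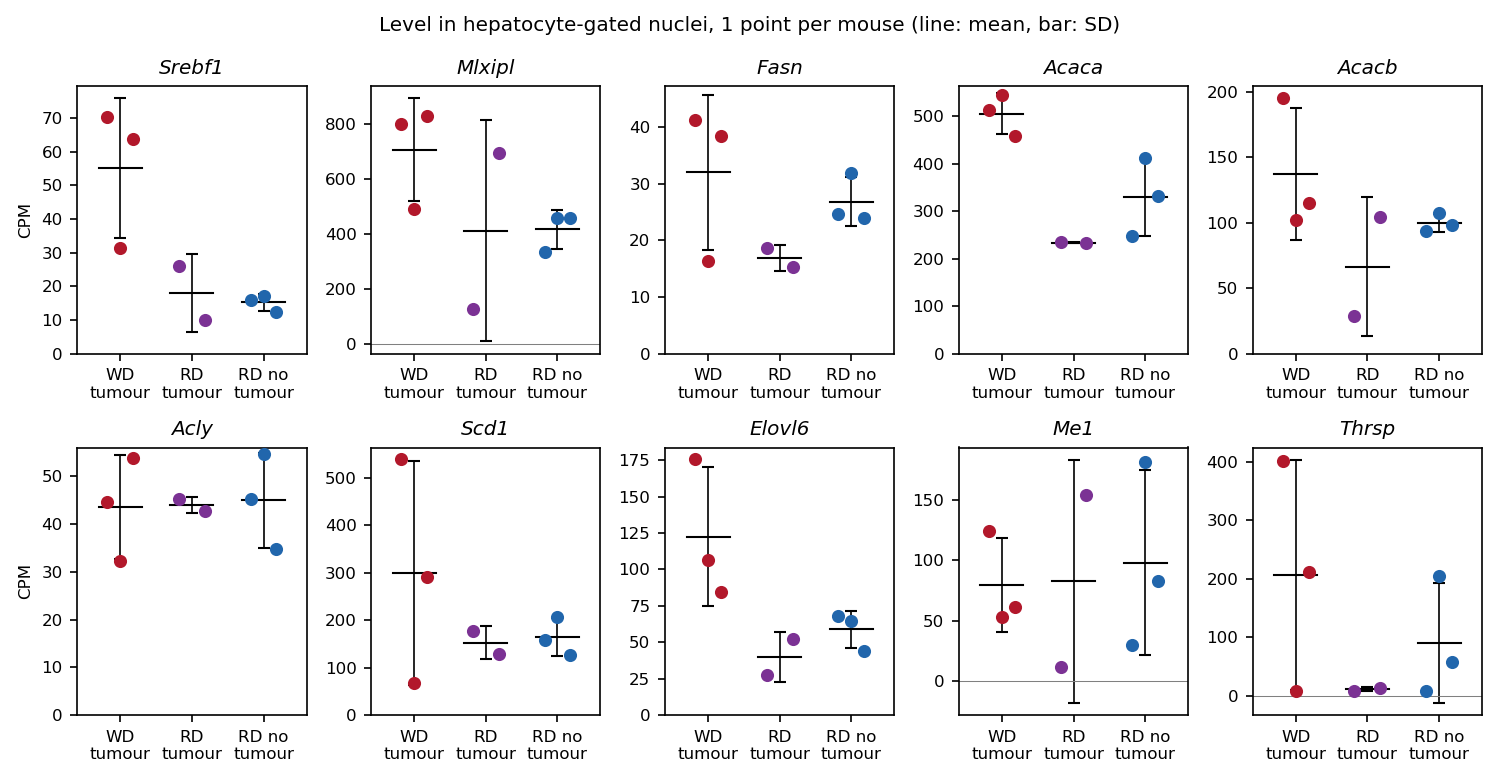
Levels of the 10 genes in hepatocyte-gated nuclei, in CPM (linear vertical axes), by group; each point is 1 mouse, the line is the mean and the bar is 1 SD. Srebf1, Acaca and Elovl6 show all 3 WD tumour mice above the 5 reversed mice, while Thrsp runs from 8.27 to 401 within the WD tumour group.

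In hepatocyte nuclei 3 of 10 members, then, had all 3 WD tumour mice above all 5 reversed mice, and 2.51% of the 16968 genes tested did. The same 3 members remained under TMM and RLE scaling and in each repeat that left out 1 mouse other than WD tumour 2 and RD tumour 2. Without RD tumour 2 Mlxipl joined them (4.41% of genes), and without WD tumour 2 the count was 8 (all but Acly and Me1), when 5.32% of genes had that order. In whole libraries the 3 members were again Srebf1, Acaca and Elovl6 (2.39% of 19087 genes); Acaca dropped out under TMM and RLE scaling, and without WD tumour 2 the count was 7 (5.87% of genes). Whole-library sums mix nuclei of all types, so that fewer cells of a type and less RNA per cell cannot be told apart there.

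WD tumour against RD no tumour sets continued diet with tumours against reversal without them. In hepatocyte nuclei the log2 fold change was 1.81 ± 0.43 (SE) for Srebf1 and 1.00 ± 0.39 for Elovl6, with unadjusted p = 0.0032 and 0.032 and adjusted p = 1.0 for both (edgeR quasi-likelihood test, Benjamini-Hochberg over 16968 genes). Acaca was 0.53 ± 0.28, Mlxipl 0.69 ± 0.60, Scd1 0.83 ± 0.65 and Thrsp 1.11 ± 1.32. The other log2 fold changes were 0.40 ± 0.49 for Acacb, 0.20 ± 0.37 for Fasn, -0.11 ± 0.28 for Acly and -0.39 ± 0.94 for Me1. In all, 8 members were thus higher and 2 lower, with a median log2 fold change of 0.61 beside -0.02 over all genes tested. No gene passed the adjusted threshold of 0.05 (0%), and 518 did at an unadjusted p under 0.05 (3.05%). Of the members 4, Srebf1, Mlxipl, Acaca and Elovl6, did not overlap between these groups, with the WD tumour mice higher, as did 8.77% of all genes. DESeq2, run as an alternative, called 45 genes and no member. In whole libraries 9 members were higher, among them Acly, which turned lower under RLE scaling, and 1 was lower, with a median of 0.46; no gene was called (0%), 524 genes had an unadjusted p under 0.05 (2.75%), and Srebf1 was the only member among them (1.65 ± 0.43).

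WD tumour against RD tumour compares continued with reversed diet among tumour-bearing mice. All 10 members had a positive log2 fold change in hepatocyte nuclei, except that Acly and Me1 turned negative with scaling to the library size, and their median was 1.17 beside 0.00 over all genes. The values were 1.83 ± 0.51 (SE) for Srebf1, 1.75 ± 0.46 for Elovl6, 1.26 ± 0.33 for Acaca, 1.09 ± 0.44 for Fasn and 4.31 ± 1.79 for Thrsp, each with adjusted p = 0.458 by edgeR. These 5 members were among the 1810 genes with an unadjusted p under 0.05 (10.7%), and no gene was called (0%). DESeq2 called 190 genes, with Acaca (1.22, adjusted p = 0.0227) and Elovl6 (1.73, adjusted p = 0.0406) among them. Srebf1, Acaca and Elovl6 did not overlap between these groups, as did 11.9% of all genes with WD tumour higher. Without RD tumour 1, the library that stood apart, the log2 fold change was 2.59 for Srebf1, 1.19 for Acaca and 1.33 for Elovl6, but 0.11 in place of 0.89 for Mlxipl, 0.50 in place of 1.17 for Acacb and -0.85 in place of 0.05 for Me1. Leaving out RD tumour 2 leaves RD tumour 1 alone to stand for the group. The log2 fold change was then 2.75 for Mlxipl, 2.52 for Acacb and 2.42 for Elovl6. These values rest on the lone mouse, which is assumed to vary like the other groups. In whole libraries 9 members were higher, of which Me1 turned lower with scaling to the library size, no gene was called (0%), and 1443 genes (7.56%), among them 4 members, had an unadjusted p under 0.05.

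Mice with and without tumours were then compared after the same reversal, as RD tumour minus RD no tumour. The log2 fold change in hepatocyte nuclei was negative for all 10 members, except that Srebf1, at -0.02 ± 0.48 (SE), turned positive under RLE scaling (0.026) and scaling to the library size (0.23). The median was -0.58 beside -0.05 over all genes. The largest were -3.19 ± 1.69 for Thrsp, -0.90 ± 0.43 for Fasn, -0.77 ± 0.56 for Acacb, -0.75 ± 0.44 for Elovl6 and -0.73 ± 0.32 for Acaca, the last with adjusted p = 0.458 by edgeR. Both RD tumour mice lay below all RD no tumour mice for Fasn and Acaca, as for 6.81% of all genes. No gene was called (0%), and none of the members was among the 1834 genes with an unadjusted p under 0.05 (10.8%). DESeq2 called 162 genes and no member. Without RD tumour 1 the value was 0.58 in place of -0.20 for Mlxipl, 0.47 in place of -0.43 for Me1 and -0.09 in place of -0.77 for Acacb. Without RD tumour 2, with RD tumour 1 alone for the group, the value was -2.06 for Mlxipl and -2.13 for Acacb. In whole libraries 8 members were lower, no gene was called (0%), and 1279 genes (6.70%) but no member had an unadjusted p under 0.05. The 3 contrasts share groups, so their values are not independent of each other.

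**Figure D2:**
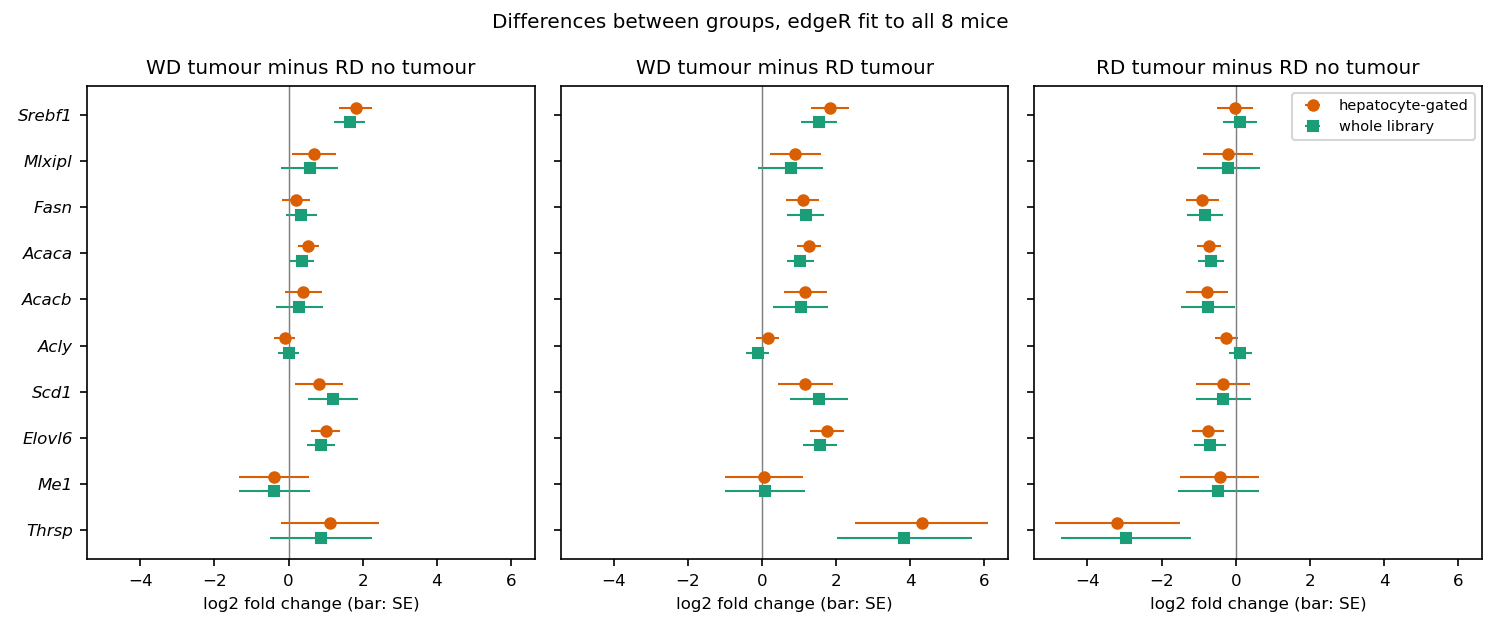
Log2 fold changes with their SE for the 10 genes in the 3 contrasts, in hepatocyte-gated nuclei (circles) and whole libraries (squares), from the edgeR fit over all 8 mice. The points lie mostly right of 0 for WD tumour minus RD tumour (median 1.17 in hepatocyte nuclei) and left of 0 for RD tumour minus RD no tumour (median -0.58), with long bars for Thrsp and Me1.

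The other genes of the route came from a list of 67, of which 65 were tested in hepatocyte nuclei, and none passed the adjusted threshold in any contrast. For WD tumour minus RD no tumour their median log2 fold change was 0.12, and the 3 largest values were 2.83 ± 0.64 (SE) for Pnpla3, a lipid droplet protein, -2.66 ± 1.93 for the elongase Elovl3 and 1.98 ± 0.71 for Mogat1, a monoacylglycerol acyltransferase. Pnpla3 and Mogat1 were low, with at most 3.79 and 11.8 CPM in any mouse. For WD tumour minus RD tumour the median was 0.27, with 2.68 ± 0.66 for Pklr, liver pyruvate kinase, and 2.63 ± 0.88 for Mogat1 at the top. For RD tumour minus RD no tumour the median was -0.15, and the largest were -2.53 ± 1.30 for Slc13a5, a citrate carrier, -2.09 ± 0.64 for Pklr and 2.01 ± 0.90 for Scd2, a desaturase. Slc13a5 was 37.6 CPM in RD no tumour 1 and at most 3.84 in the other 4 reversed mice, and Scd2 was 18.6 in RD tumour 1 and 2.05 in RD tumour 2, so that each of these values rests on 1 library. Pklr, which feeds glucose carbon into the route, was lowest in RD tumour 1, at 7.03 CPM. By role, the median for WD tumour minus RD tumour was 0.35 over 18 genes of carbon and NADPH supply, 0.18 over 14 of elongation and desaturation, 0.40 over 15 of esterification and 0.11 over 18 regulators, against 1.17 for the 10 members.

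Clock and feeding genes, listed for values beside these results, also differed between mice of 1 group. Arntl, a core activator of the clock, stood at 180 and 174 CPM in the RD tumour mice and between 14.2 and 85.1 in the other 6. Dbp, a clock output factor, was 27.3, 10.9 and 95.1 in WD tumour mice, 13.3 and 2.62 in RD tumour mice and 16.8, 9.16 and 22.0 in RD no tumour mice. Igfbp1, which insulin represses, was 132, 604 and 133 in WD tumour mice, 2522 and 501 in RD tumour mice and 715, 212 and 128 in RD no tumour mice. The 4 mice with the highest Igfbp1 (RD tumour 1 and 2, RD no tumour 1 and WD tumour 2) were the 4 with the lowest Thrsp. Of the 12 fasting and feeding genes, 11 had a negative log2 fold change for WD tumour minus RD no tumour, with a median of -0.35, and 9 for WD tumour minus RD tumour, with a median of -0.52. The part of feeding and time of day in the members' levels was not tested.

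**Figure D3:**
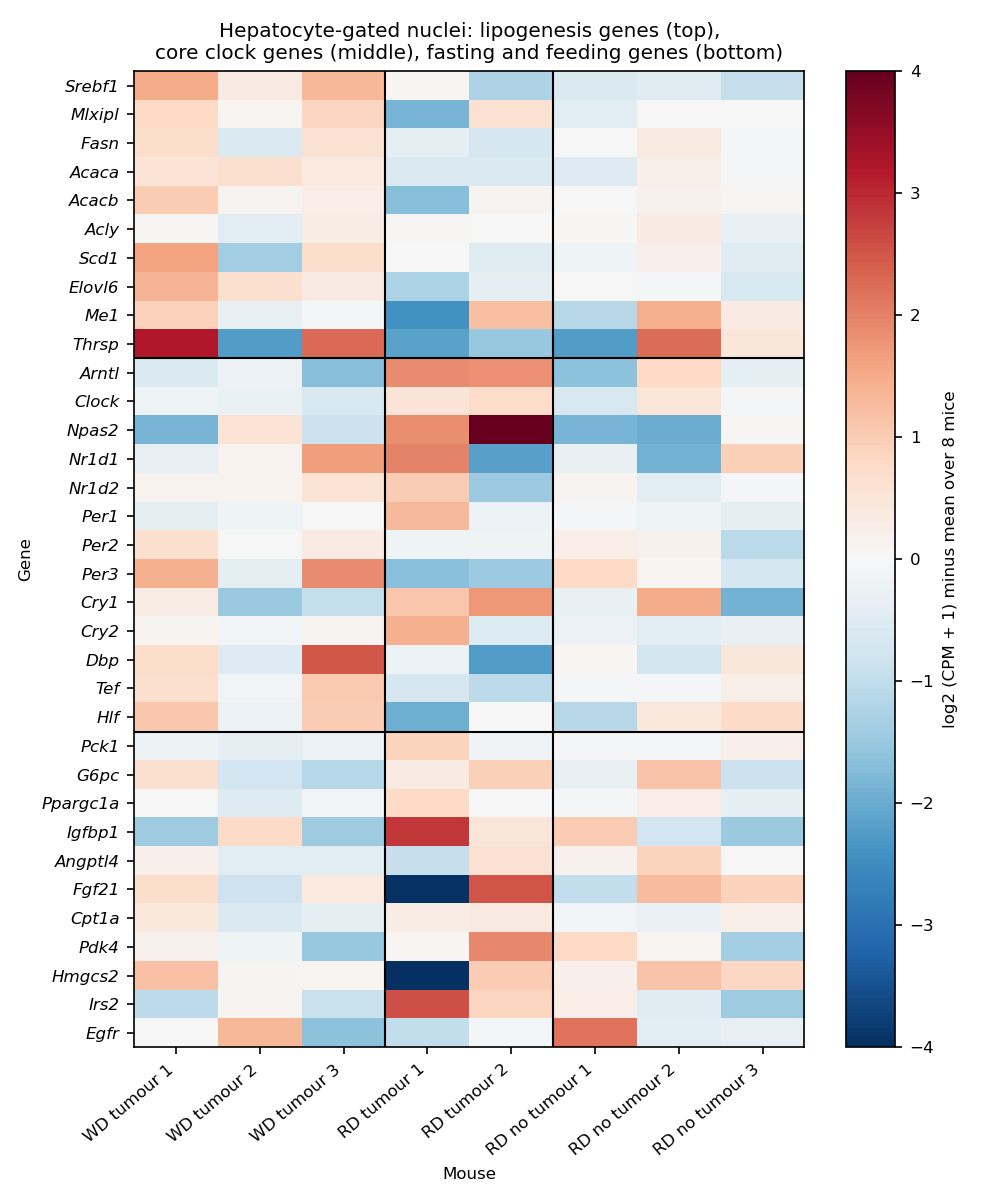
Heat map of hepatocyte-gated levels, as log2 of CPM plus 1 minus the gene's mean over the 8 mice (colour scale, clipped at the ends), with mice in columns and the 10 members, 13 core clock genes and 11 fasting and feeding genes in rows. Thrsp is low in WD tumour 2, RD tumour 1 and 2 and RD no tumour 1, where Igfbp1 is above its mean.

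Within the liver lobule, hepatocytes near the central vein differ from those near the portal vein, and textbook zonation places lipogenesis pericentrally. Here hepatocyte nuclei of each mouse were ranked by the share of pericentral among zone-marker UMIs and cut into 3 equal parts, of which the highest was set against the lowest. No member was a zone marker. Of the members 3 were higher in periportal nuclei and 1 in pericentral nuclei by edgeR with the mouse as a block: 4 of 10, where 17.3% of 13021 genes tested were called, 8.57% towards periportal and 8.71% towards pericentral. Acly was higher in periportal nuclei in 8 of 8 mice, at 64.8 ± 14.5 CPM (SD, n = 8) against 26.3 ± 6.42 in pericentral nuclei (log2 difference, pericentral minus periportal, -1.36 ± 0.12 SE, adjusted p = 2.3e-06). Acaca stood at 464 ± 146 periportally and 287 ± 128 pericentrally (-0.73 ± 0.13, adjusted p = 0.0014) and was higher periportally in 8 of 8 mice. Srebf1 gave 37.5 ± 27.0 and 27.3 ± 21.8 (-0.54 ± 0.12, adjusted p = 0.0059), also in 8 of 8 mice. Scd1 went the other way, with 190 ± 157 periportally and 248 ± 143 pericentrally (0.49 ± 0.12, adjusted p = 0.011), in 7 of 8 mice.

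The other 6 members did not pass the test. Their log2 differences were -0.54 ± 0.27 for Thrsp, -0.22 ± 0.10 for Elovl6, -0.18 ± 0.16 for Fasn, -0.05 ± 0.11 for Me1, -0.03 ± 0.09 for Mlxipl and 0.00 ± 0.06 for Acacb. The pair of carboxylases thus gave -0.73 for Acaca and 0.00 for Acacb, a difference that was not itself tested. Without RD tumour 1, whose zones were not opposed, the 4 called members remained called, at -1.43 for Acly, -0.79 for Acaca, -0.55 for Srebf1 and 0.43 for Scd1. When the zones were set without their most abundant markers (Cyp2e1, Glul, Pck1 and Uox), Scd1 was no longer called (0.11, adjusted p = 0.586). Without WD tumour 1, Elovl6 (-0.31, adjusted p = 0.0446) and Thrsp (-0.83, adjusted p = 0.0451) were called as well, as they were without the filter on low counts.

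Of the other genes of the route that are no zone or hepatocyte marker, 7 of 62 tested were higher in periportal and 10 in pericentral nuclei. Of all 13021 genes tested, 8.57% and 8.71% were. Those with the largest differences towards periportal were Ppargc1b, a coactivator of SREBP (-0.99 ± 0.09), the acyltransferase Gpat3 (-0.72 ± 0.16), Pklr (-0.54 ± 0.17), the acyl-CoA synthetases Acsl3 (-0.47 ± 0.09) and Acsl5 (-0.24 ± 0.08), and the second SREBP gene Srebf2 (-0.29 ± 0.09). Towards pericentral they were Elovl3 (2.12 ± 0.17), the citrate carrier Slc13a5 (0.72 ± 0.17), the phosphatidate phosphatase Lpin2 (0.52 ± 0.10), cytochrome b5 Cyb5a (0.52 ± 0.08), citrate synthase Cs (0.50 ± 0.06) and the dehydratase Hacd3 (0.40 ± 0.06). Elongation and desaturation genes were called towards pericentral in 4 of 13 cases, beside 8.71% of all genes, and towards periportal in none, beside 8.57%.

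The zone difference itself was then compared between groups. For Acaca the log2 difference, pericentral minus periportal, was -0.45, -0.30 and -0.48 in WD tumour mice, -0.20 and -0.79 in RD tumour mice and -0.84, -1.29 and -1.57 in RD no tumour mice. All 3 WD tumour mice were nearer to 0 than all 3 RD no tumour mice. For Fasn it was 0.57, 0.49 and -0.12 in WD tumour mice, -0.36 and 0.34 in RD tumour mice and -0.66, -0.41 and -1.01 in RD no tumour mice. For Scd1 it was 0.05 ± 0.07 (SD, n = 3) in WD tumour mice, 1.08 and 0.34 in RD tumour mice and 1.06, 0.72 and 0.45 in RD no tumour mice, so that all 5 reversed mice lay above the WD tumour mice. The value of RD tumour 1 comes from a mouse whose zone markers were not opposed. The plot of zone differences by mouse shows all 10.

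For 7 members (Srebf1, Mlxipl, Fasn, Acaca, Acly, Elovl6 and Me1) the zone differences of all WD tumour mice lay above those of all RD no tumour mice, as did 7.56% of all genes, and for Scd1 alone they lay below, as did 6.27%. The difference of zone differences, WD tumour minus RD no tumour, was 0.98 ± 0.24 (SE) for Fasn, 0.82 ± 0.19 for Acaca, 0.53 ± 0.21 for Srebf1, 0.51 ± 0.21 for Acly, 0.52 ± 0.19 for Elovl6, 0.50 ± 0.19 for Me1, 0.44 ± 0.18 for Mlxipl and -0.71 ± 0.19 for Scd1. These 8 had an unadjusted p under 0.05, as did 8.01% of genes, and Thrsp (1.05 ± 0.51) and Acacb (0.04 ± 0.13) did not. None passed the adjusted threshold (Acaca adjusted p = 0.239, Fasn adjusted p = 0.241, edgeR interaction test), which 10 of 13021 genes did (0.0768%). Acaca was called without RD no tumour 1 (1.02, adjusted p = 0.0120). When genes of low count were kept in the fit, Fasn, Acaca, Scd1 and Thrsp were called (adjusted p from 1.1e-06 to 4.4e-04). That fit called 260 genes in all, against 10 in the main fit. The number of genes called was 2, 5 and 1 without WD tumour 1, 2 and 3, 23 and 25 without RD tumour 1 and 2, and 84, 6 and 0 without RD no tumour 1, 2 and 3.

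Zone sharpness differed between the mice too. In the periportal part, pericentral markers made up a median of 18.2%, 14.0% and 10.6% of zone-marker UMIs in WD tumour mice and 7.29%, 10.9% and 8.33% in RD no tumour mice. In the pericentral part they made up 59.3%, 50.5% and 59.6% against 40%, 58.7% and 59.2%. The part of this in the interaction was not tested. For RD tumour minus RD no tumour, no gene passed the adjusted threshold (0%), and 5 members were among the 4.71% of genes with an unadjusted p under 0.05: Srebf1 (0.80 ± 0.32), Fasn (0.76 ± 0.35), Acaca (0.68 ± 0.23), Acly (0.66 ± 0.27) and Me1 (0.73 ± 0.24). These rest in part on RD tumour 1, whose zone markers were not opposed. Without it, with RD tumour 2 alone for the group, the values were 0.84 for Srebf1, 1.05 for Fasn, 0.41 for Acaca, 0.31 for Acly and 0.84 for Me1. For WD tumour minus RD tumour no gene was called either (0%), and Scd1 (-0.60 ± 0.23, and -0.26 without RD tumour 1) was the only member among the 5.96% of genes with an unadjusted p under 0.05. DESeq2 was not run on the zones.

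**Figure D4:**
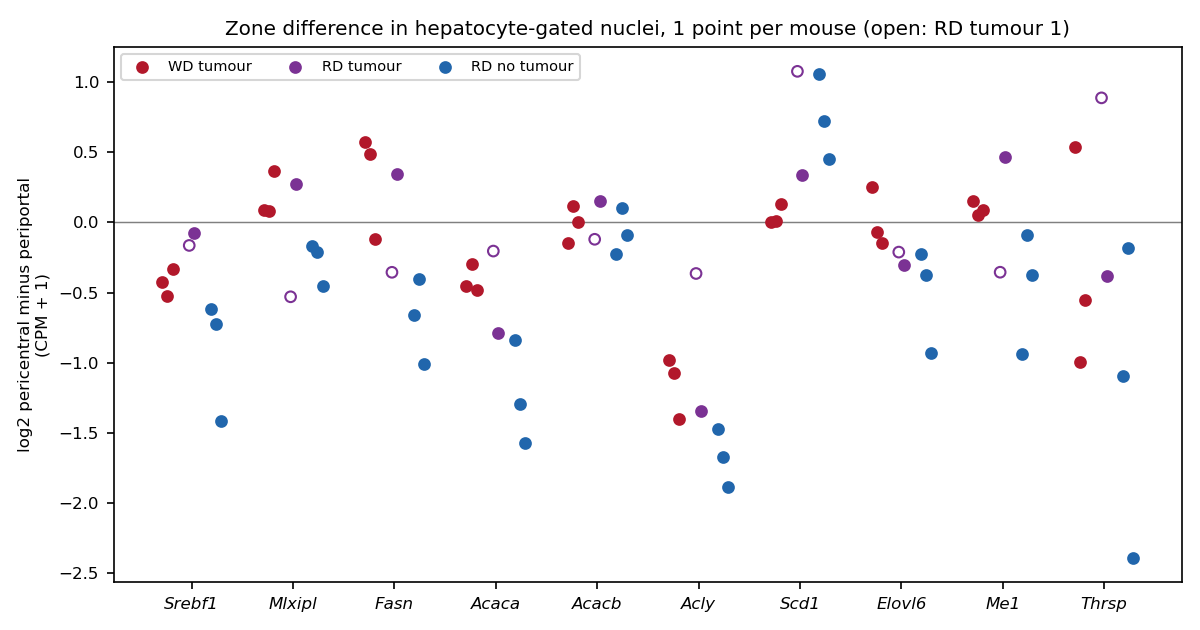
Zone difference of each member in hepatocyte-gated nuclei, as log2 of CPM plus 1, pericentral minus periportal (linear axis); each point is 1 mouse, coloured by group, with RD tumour 1 open. Acly, Acaca and Srebf1 lie below 0 in all 8 mice, and for Acaca the WD tumour mice (-0.48 to -0.30) lie above the RD no tumour mice (-1.57 to -0.84).

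Across classes of nuclei, levels were compared in the 7 mice other than RD tumour 1, as a description without a test. Mlxipl, Acaca and Acacb were higher in hepatocyte nuclei than in each of 6 other classes in all 7 mice. Mlxipl had a median of 490 CPM in hepatocyte nuclei, 66.3 in endothelial and 30.5 in macrophage nuclei. Acaca had 411, 87.3 and 101, and Acacb had 104, 30.9 and 7.60. Other classes were nearer to hepatocyte nuclei. In T or natural killer cell and in B or plasma cell nuclei the medians were 309 and 335 for Mlxipl. They were 204 and 203 for Acaca, and 61.2 and 53.9 for Acacb. Elovl6 followed with 67.7 in hepatocyte, 25.6 in endothelial and 9.39 in macrophage nuclei. The hepatocyte marker Alb, whose RNA is found free in such suspensions, had 8835 in hepatocyte, 14352 in endothelial and 11294 in macrophage nuclei, so that RNA from hepatocytes was present in every class.

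Scd1 had the reverse order, as had Alb. Its median was 159 CPM in hepatocyte nuclei, 485 in endothelial, 338 in macrophage, 327 in stellate or fibroblast and 387 in ungated nuclei, and each of these classes was above hepatocyte nuclei in 7 of 7 mice. Alb was above hepatocyte nuclei in 5 to 7 of 7 mice, depending on the class. By their medians over mice, Acly and Srebf1 were not highest in hepatocyte nuclei. Acly had 44.7 there, 51.0 in macrophage and 49.4 in B or plasma cell nuclei. Srebf1 had 17.2 there and 33.4 in cholangiocyte nuclei. Within mice, however, the Srebf1 ratio of cholangiocyte to hepatocyte nuclei had a median of 0.98 (0.65 to 2.49). Cholangiocyte nuclei were the higher ones in 3 of 7 mice. Fasn had 24.7 in hepatocyte, 22.0 in ungated, 18.2 in cholangiocyte and 18.0 in T or natural killer cell nuclei. It was lowest in macrophage nuclei, at 6.83. Thrsp had 58.5 in hepatocyte and 14.1 in macrophage nuclei. Among the other classes Me1 was highest in cholangiocyte nuclei (67.6) and stellate or fibroblast nuclei (66.97), against 24.2 in endothelial and 17.4 in macrophage nuclei, and each of the 2 was above hepatocyte nuclei in 3 of 7 mice.

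Depth per nucleus was a median of 4007 to 5954.5 UMIs in hepatocyte nuclei and 1031.5 to 2245 in endothelial nuclei of these mice. With each nucleus thinned to 1000 UMIs (12 to 353 endothelial nuclei per mouse and no hepatocyte nucleus were too shallow), at least 1 Mlxipl UMI was found in a median of 38.0% of hepatocyte and 4.15% of endothelial nuclei, against 86.7% and 7.90% without thinning. Acaca gave 30.9% and 5.84% thinned, and 76.8% and 10.7% unthinned. Scd1 gave 14.0% and 33.7% thinned, and 41.0% and 38.8% unthinned. For Srebf1 the median thinned shares were 1.72% and 1.63% (9.20% and 3.17% unthinned). Over the mice they ran from 1.02% to 7.37% in hepatocyte and from 1.16% to 3.64% in endothelial nuclei. In CPM, Srebf1 was higher in endothelial than in hepatocyte nuclei in 3 of 7 mice. Fasn gave 2.44% and 0.90% (11.3% and 1.64% unthinned).

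**Figure D5:**
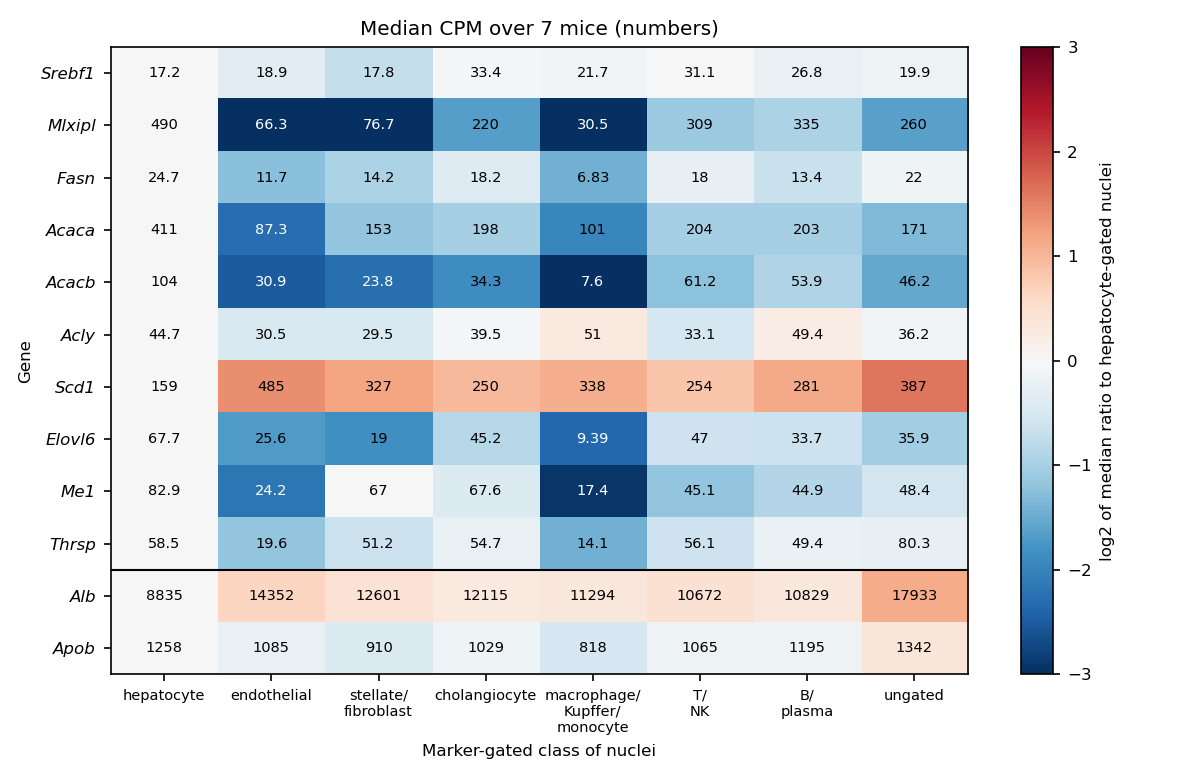
Median level over 7 mice in each marker-gated class (numbers, CPM), coloured by the log2 of the median ratio to hepatocyte-gated nuclei of the same mouse, for the 10 members and, below the line, Alb and Apob. Mlxipl, Acaca and Acacb are lower in all other classes, while Scd1 and Alb are higher.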

How the data were processed

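Raw UMI counts per gene and barcode were used as the authors deposited them, from Cell Ranger 7.0.0 (per the file headers), with build mm10 per the submitters' processing notes. Barcodes with at least 300 genes were kept. A non-hepatocyte class needed 3 of its markers and 4 times the library's share of them. Hepatocyte nuclei needed 1500 UMIs, 4 of 8 markers and a marker share above the 90th percentile of nuclei of other classes. Zones were the outer of 3 equal parts of hepatocyte nuclei with 10 or more zone-marker UMIs. These gates were set after the data were seen, and the members and lists were chosen with earlier results of these data known. Doublets stayed in, and leaving out the nuclei of highest Scrublet score (scanpy 1.11.5) was an alternative. CPM are UMIs scaled to 1000000 per mouse.

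Counts were summed per mouse, or per mouse and zone, and tested with edgeR 4.0.16 (quasi-likelihood, TMM, filterByExpr) in R 4.3.3 over all 8 mice, the mouse being the replicate. Adjustment was by Benjamini-Hochberg over all genes tested, with a threshold of 0.05. DESeq2 1.42.0 was an alternative. Zone differences per mouse used CPM plus 1. The scripts were tested on simulated data.

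All 10 members are named in each contrast. Of the other genes of the route, those past the threshold are named, at most the 6 largest per direction, or else the 3 largest log2 fold changes. Values of 2 listed genes are not reported here. Of 32285 gene IDs, 32158 were in GENCODE M21. Depth limits precision for low genes such as Srebf1 (104 to 977 UMIs per mouse in hepatocyte nuclei). Replicate numbers name different mice and do not pair them. Counts cover sampling of molecules only.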

Additional observations from a re-analysis of the deposited data

How the results depend on the processing

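Of 1590 recomputed values of single members, 1489 kept their direction and their side of the threshold, 78 reversed, 22 passed the threshold newly and 1 no longer did (Scd1 between zones, given in the report). Most reversals were of values near 0, and their cause was not tested. The lowest counts in hepatocyte nuclei were 36 UMIs for Thrsp, 46 for Me1 and 74 for Fasn, all in RD tumour 1. Scaling by library size, the gate without a UMI minimum, the macrophage sum without Slc8a1, and the rescaled or reduced counts of members in the stated order were chosen after seeing the data. The strict hepatocyte gate, with no UMI of another class's markers, left 0 to 8 nuclei per mouse and was not run.

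DESeq2 called 36, 64 and 109 genes in whole libraries (WD tumour minus RD no tumour, RD tumour minus RD no tumour, WD tumour minus RD tumour) and 45, 162 and 190 in hepatocyte nuclei, with 2 members in the last. Scaling by library size called 1 gene in hepatocyte nuclei for WD tumour minus RD tumour. It moved the median of all genes to 0.17 for RD tumour minus RD no tumour and -0.15 for WD tumour minus RD tumour, with 10076 genes higher and 6892 lower in place of 8060 and 8908, and 7138 and 9830 in place of 8484 and 8484. For WD tumour minus RD no tumour the split was 9490 and 7478 in place of 8106 and 8862. In the group-by-zone tests, 2 zones in place of 3 parts called 3 genes for each contrast with RD tumour. Without the filter on low counts, 260 genes and 4 members were called for WD tumour minus RD no tumour, 100 genes and 1 member for RD tumour minus RD no tumour, and 138 genes for WD tumour minus RD tumour.

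Reversed values in whole libraries were Acly for WD tumour minus RD no tumour under DESeq2 (-0.0033), RLE (-0.0034), no filter (-0.0031), 500 genes per nucleus (-0.019) and no mitochondrial genes (-0.0048), and Me1 for WD tumour minus RD tumour by library size (-0.0078). In hepatocyte nuclei they were Srebf1 for RD tumour minus RD no tumour under DESeq2 (0.027), RLE (0.026), the 2 groups alone (0.0027) and library size (0.23), and Acly (-0.013) and Me1 (-0.065) for WD tumour minus RD tumour by library size. With fewer zone markers Mlxipl between zones was 0.015, and the group-by-zone values were 0.12 for Scd1 (RD tumour minus RD no tumour) and 0.0044 for Acacb and 0.25 for Thrsp (WD tumour minus RD tumour), the last 0.18 with 2 zones.

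The replicate numbers name different mice and share only a number. With a replicate block no count of calls changed, and 4 values reversed for these contrasts: Acly (-0.027) and Me1 (0.27) for WD tumour minus RD no tumour and Srebf1 (-0.0029) for RD tumour minus RD no tumour in whole libraries, and Me1 (0.28) for WD tumour minus RD no tumour in hepatocyte nuclei.

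Leaving out each mouse in turn gave 0 to 4569 genes and 0 to 2 members called for RD tumour minus RD no tumour and 0 to 4438 and 0 to 3 for WD tumour minus RD tumour in whole libraries, and 0 to 4329 and 0 to 2, and 0 to 4196 and 0 to 3, in hepatocyte nuclei, the high ends all without RD tumour 2. By group and zone it gave 0 to 84 genes and 0 to 1 members (WD tumour minus RD no tumour), 0 to 9 genes (RD tumour minus RD no tumour) and 0 to 2 (WD tumour minus RD tumour). Members with every WD tumour mouse above every reversed mouse numbered 3 to 7 in whole libraries and 3 to 8 in hepatocyte nuclei.

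Members that reversed in any such repeat had these ranges of log2 values over the repeats. In whole libraries, WD tumour minus RD no tumour ran for Acacb from -0.17 to 0.56, Acly from -0.15 to 0.21, Thrsp from -0.20 to 2.29 and for Me1 from -0.96 to 0.24. In whole libraries, WD tumour minus RD tumour ran for Me1 from -0.82 to 3.05, Acly from -0.31 to 0.079 and for Mlxipl from -0.099 to 3.28. In whole libraries, RD tumour minus RD no tumour ran for Srebf1 from -0.49 to 0.51, Mlxipl from -2.72 to 0.66, Acacb from -2.61 to 0.026, Acly from -0.063 to 0.32 and for Me1 from -3.44 to 0.43. In hepatocyte nuclei, WD tumour minus RD no tumour ran for Fasn from -0.056 to 0.53, Acly from -0.30 to 0.087 and for Me1 from -0.91 to 0.43. In hepatocyte nuclei, WD tumour minus RD tumour ran for Me1 from -0.85 to 3.06 and for Acly from -0.055 to 0.34. In hepatocyte nuclei, RD tumour minus RD no tumour ran for Mlxipl from -2.06 to 0.58, Me1 from -3.45 to 0.47 and for Srebf1 from -0.78 to 0.45. Between zones, the range ran for Acacb from -0.023 to 0.030, Mlxipl from -0.088 to 0.041 and for Me1 from -0.14 to 0.052. By group and zone, WD tumour minus RD tumour ran for Thrsp from -1.05 to 0.34, Mlxipl from -0.060 to 0.74, Fasn from -0.057 to 0.67, Acly from -0.80 to 0.21, Acaca from -0.18 to 0.41, Acacb from -0.13 to 0.14 and for Me1 from -0.34 to 0.51. By group and zone, RD tumour minus RD no tumour ran for Mlxipl from -0.29 to 0.51, Acacb from -0.088 to 0.21, Scd1 from -0.45 to 0.30, Me1 from -0.0070 to 0.95 and for Elovl6 from -0.051 to 0.34. By group and zone, WD tumour minus RD no tumour ran for Acacb from -0.019 to 0.14.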

Other observations

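Me1 and the elongase Elovl3 were high in the same mice, a pattern chosen after their values were seen. In hepatocyte nuclei Elovl3 had 47.4 CPM in RD tumour 2 and 67.2 in RD no tumour 2, and at most 10.3 in the other 6 mice. The same 2 mice had the highest Me1, at 154 and 181. Over the 10 members, WD tumour 1 had all 10 above the 8-mouse mean of log2 levels, WD tumour 2 had 5 and WD tumour 3 had 9. The RD tumour mice had 2 and 3, and the RD no tumour mice had 1, 7 and 3.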
